A study of Mus musculus with 6 samples.

Results

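Genes for collagens, laminins and the proteoglycans and glycoproteins of the extracellular matrix were measured in the cochlear nucleus of mice after the auditory nerve of 1 ear had been silenced. The genes were chosen by symbol: every numbered collagen chain, the laminin chains, nidogens, perlecan (Hspg2), fibronectin (Fn1), fibrillins, decorin (Dcn), lumican (Lum), biglycan (Bgn), Sparc, Sparcl1, the lecticans, the tenascins Tnc and Tnr, and the hyaluronan link proteins. The array named 63 such genes through 103 probe sets. Of these, 45 genes had a probe set whose mean log2 value over the 6 arrays was above 4, and each was read by its brightest probe set. They are 45 of the 8754 named genes, and of 15298 probe sets, that passed the same limit. The other 18 genes were too dim to test: Col2a1, Col4a3, Col4a4, Col4a6, Col10a1, Col13a1, Col14a1, Col15a1, Col17a1, Col22a1, Col25a1, Col26a1, Lama1, Lama3, Lama5, Lamb3, Nid2 and Fbn2. Col13a1 and Lama5, both at 3.91, lay just below the limit, and Lum, at 4.27, lay just above it. Fbn1, Tnr, Hapln3 and Hapln4 were not analysed here.

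All mice were at postnatal day 21 and had tetrodotoxin (TTX), a blocker of voltage-gated sodium channels, delivered into 1 cochlea by an osmotic pump for 24 h. The ipsilateral group (3 arrays) is the cochlear nucleus on the infused side, and the contralateral group (3 arrays) is the nucleus on the opposite side of infused mice. Each array held total RNA pooled from 10 to 12 mice, and the design calls the 3 replicates biological. No group of untreated mice was part of the comparison, so the control side also comes from infused animals, and the effects of the pump surgery and of TTX cannot be told apart. The labels name neither strain nor sex.

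Basement membranes are thin sheets that wrap blood vessels and line the pial surface of the brain. They are woven from networks of type IV collagen and laminin, tied together by nidogen and perlecan. Fibrillar collagens lie mainly in the meninges and around larger vessels, whereas the brain tissue itself is rich in hyaluronan, lecticans and link proteins. Around many auditory brainstem neurons these condense into perineuronal nets, lattices in which a lectican such as aggrecan is fixed to hyaluronan by a link protein and crosslinked by tenascins.

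The arrays had similar medians, from 5.86 to 5.91 on the log2 scale. Of 15 genes that mark the cochlear nucleus and hindbrain, 10 were above the limit of 4, among them Atoh7, Barhl1, Hoxa2 and Glra1, and their mean level was 6.84 to 7.29 on every array. Markers of other tissues differed between arrays. The mean of 11 choroid plexus markers was 7.84, 7.59 and 7.11 on contralateral arrays 1 to 3, 8.83 on ipsilateral array 1, and 4.91 and 5.05 on ipsilateral arrays 2 and 3. The mean of 16 meningeal fibroblast markers lay between 7.23 and 7.47 contralaterally and between 7.09 and 7.32 ipsilaterally. Among cartilage and bone genes, 5 of 13 were above the limit and tested: Chad, Dmp1, Sox5, Alpl and Cnmd. Their mean level was 5.62 to 5.95 on every array. Sp7, Ibsp, Matn1, Matn3 and Phex were below the limit, and Runx2, Bglap and Bglap2 were not analysed here.

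No matrix gene differed between the sides beyond the spread between replicates once the test was adjusted over the whole array. With Benjamini-Hochberg adjustment, limma's moderated test called 0 of 45 genes at 0.05 and 0 of all 15298 probe sets (0.0%). Every matrix gene had an adjusted p of 1.00 in limma. At an unadjusted p under 0.05, 1 gene was higher on the infused side, Col6a3 (2.22% of members; 1.16% of all probe sets were higher), and 0 were lower (1.22% of all probe sets). In either direction 2.38% of all probe sets reached that level, so the share among matrix genes was near the background. In bulk tissue such as this, fewer cells of a type and less RNA per cell cannot be told apart.

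The differences were small. Their median was -0.022 on the log2 scale, beside -0.0055 over all probe sets, with 20 genes higher and 25 lower on the infused side (48.2% of all probe sets were higher). For 34 of the 45 genes the difference was smaller than its own standard error. The median size of a difference was 0.14 and the median standard error 0.15. No gene differed by 0.5 or more, a size reached by 1.12% of all probe sets, and Col8a1 had the largest fold at 1.39.

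The direction depended on the replicate. Ipsilateral minus contralateral, 17 of 45 genes were higher in replicate 1, 32 in replicate 2 and 26 in replicate 3. The corresponding shares of all probe sets were 45.5%, 52.3% and 49.0%. Contralateral array 1 was the highest of the 6 arrays for 13 genes, and contralateral array 2 was the lowest for 15. The genes higher in 3 of 3 replicates were Col1a1, Col6a3, Col9a1, Col12a1, Lama2, Lamb2 and Nid1, or 7 of 45 (15.6%; 10.7% of all probe sets). Col4a1 and Vcan were lower in 3 of 3 replicates, or 2 of 45 (4.44%; 13.0% of all probe sets).

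**Figure D1:**
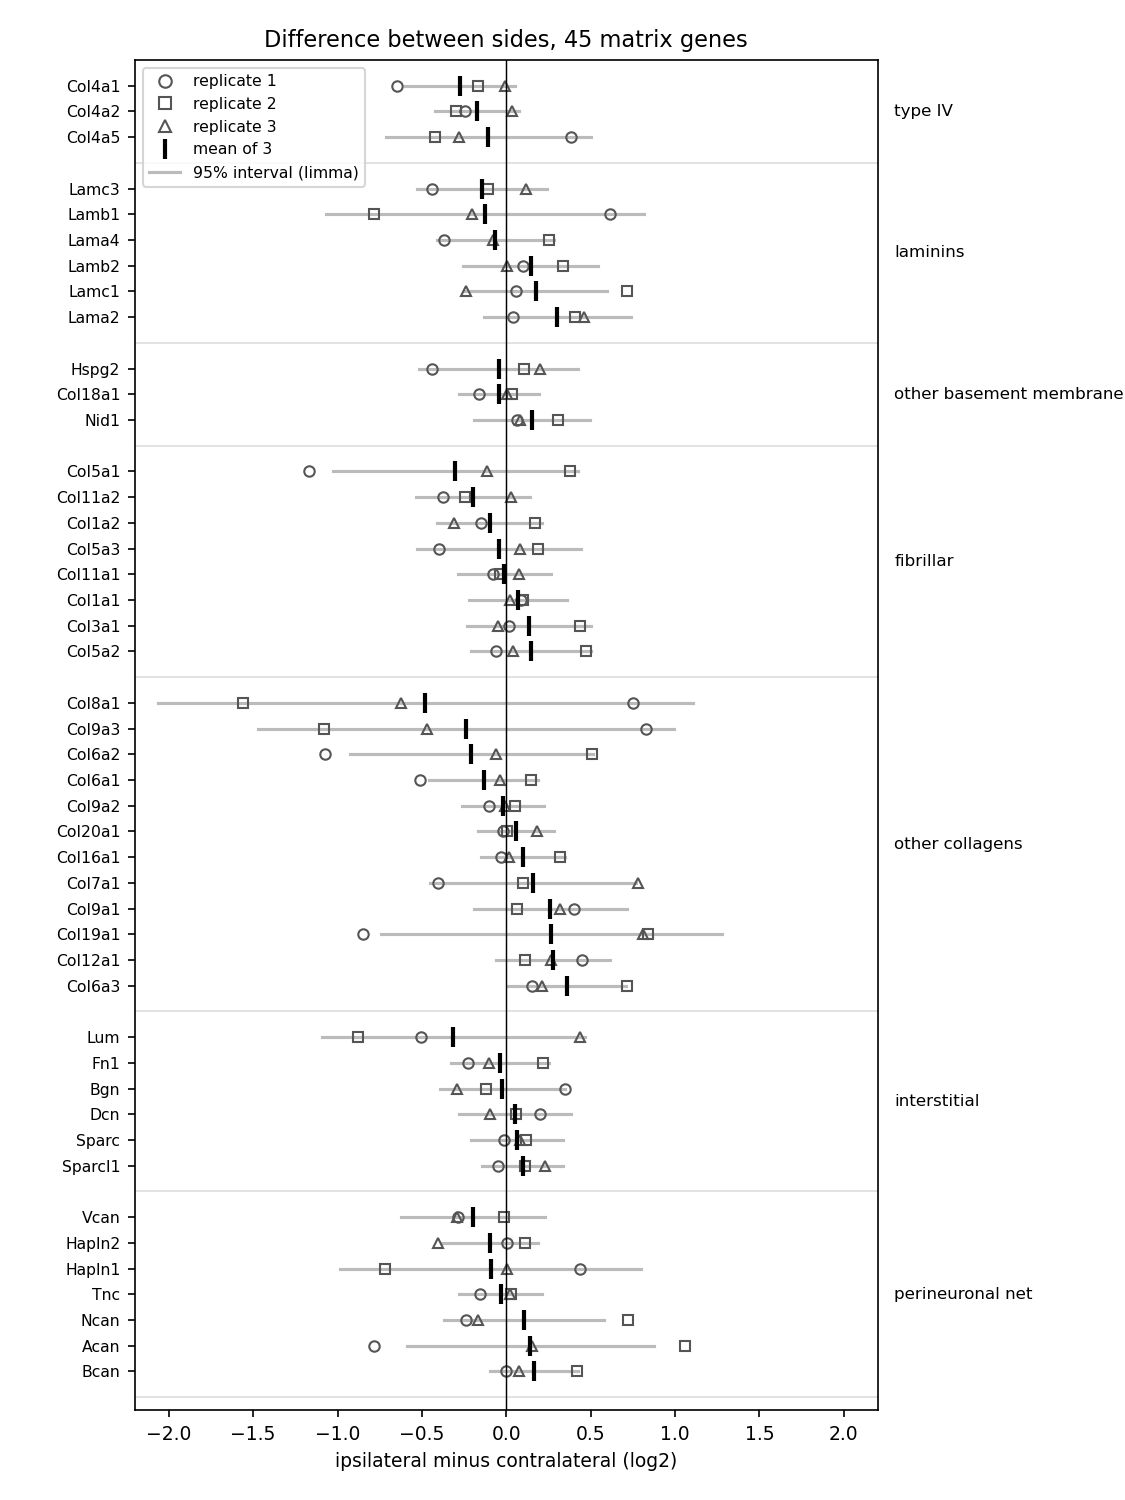
Ipsilateral minus contralateral difference (log2, horizontal axis) of the 45 matrix genes grouped by role: open symbols are the 3 replicates, black ticks their mean and grey lines its 95% limma interval. Col6a3 alone has an unadjusted interval clear of 0 (0.01 to 0.71), and Col8a1, at -0.48, has the lowest mean.

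Apart from Tnr, Hapln3 and Hapln4, which were not analysed here, the perineuronal net genes were 7 of 7 above the limit. None passed the test, 3 were higher and 4 lower, and their median difference was -0.034. Aggrecan (Acan), the lectican that marks perineuronal nets most widely, read 6.24, 5.40 and 6.03 on contralateral arrays 1 to 3 and 5.46, 6.46 and 6.18 on ipsilateral arrays 1 to 3. The sides overlapped: the lowest values came from contralateral array 2 and ipsilateral array 1, and the highest from ipsilateral array 2. Within replicates the difference in Acan was -0.78, 1.06 and 0.15, which averaged 0.14 (95% interval -0.59 to 0.87; two-sided exact permutation p = 0.7). The interval for Acan allows a difference of either sign.

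Brevican (Bcan), a brain lectican made largely by glia, read 9.48, 9.29 and 9.37 contralaterally and 9.48, 9.71 and 9.45 ipsilaterally. Ipsilateral array 2 stood above the other 5 arrays, and the sides overlapped. The difference in Bcan was 0.16 (95% interval -0.10 to 0.43; exact permutation p = 0.3). Neurocan (Ncan), a lectican abundant in the developing brain, read 7.39, 7.07 and 7.60 against 7.16, 7.79 and 7.44, a difference of 0.11 (95% interval -0.37 to 0.58). For Ncan, as for Acan, replicate 2 was higher on the infused side and replicate 1 lower.

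The link proteins tie lecticans to hyaluronan. Hapln1 read 5.57, 6.26 and 6.73 on the contralateral side and 6.01, 5.54 and 6.73 on the ipsilateral side. The spread of Hapln1 within a side (SD 0.58 and 0.60, n = 3 each) was larger than the difference of -0.092. Hapln2, a link protein of nodes of Ranvier, read 8.18, 8.05 and 8.40 against 8.18, 8.16 and 7.99, a difference of -0.098. Ipsilateral array 3 was the lowest for Hapln2 and contralateral array 3 the highest. Tenascin C (Tnc), a glycoprotein of growing and injured tissue, was close to the limit on every array, from 4.21 to 4.48, with a difference of -0.034.

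**Figure D2:**
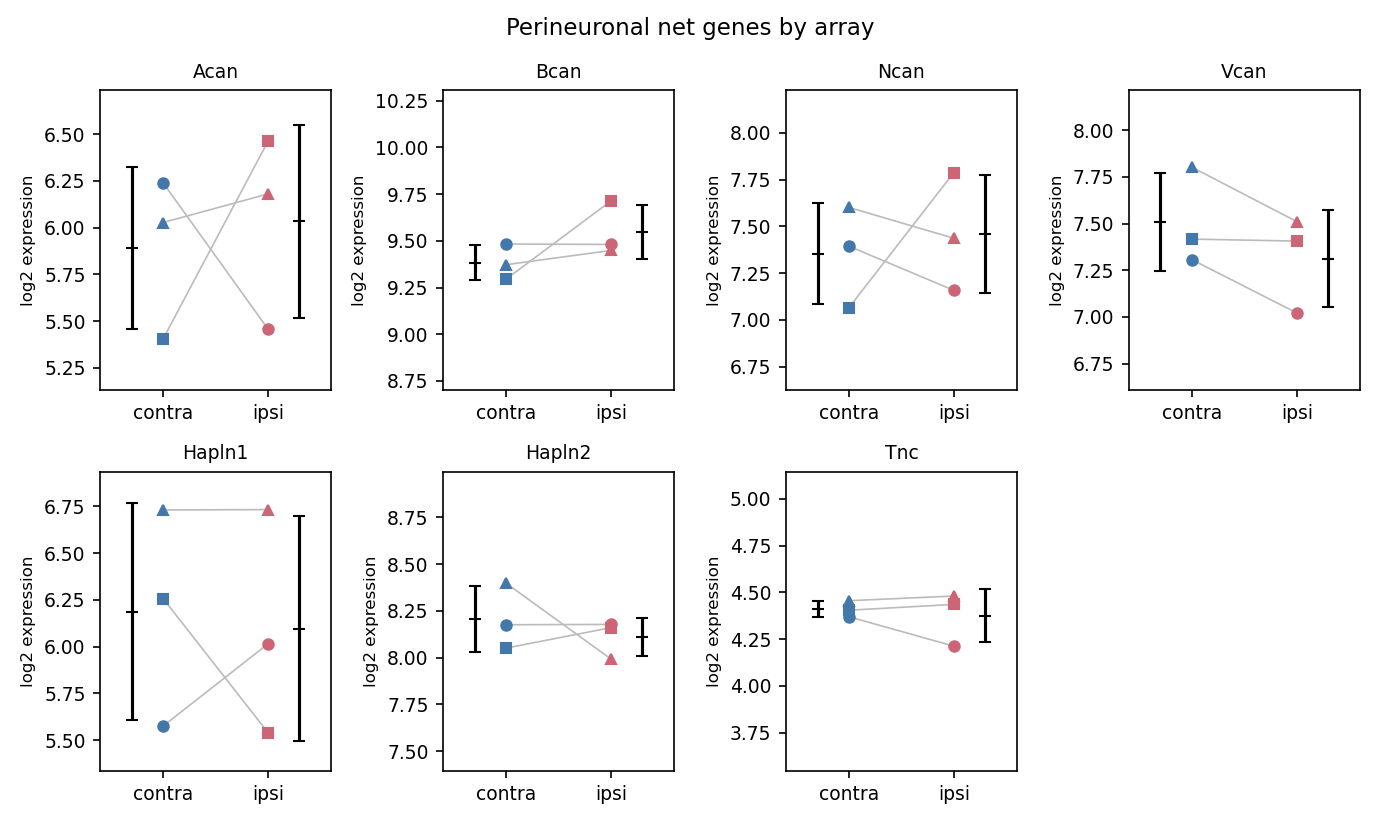
Log2 level of the 7 perineuronal net genes on each array, 1 panel a gene; circles, squares and triangles are replicates 1, 2 and 3, grey lines join equal replicate numbers, and black bars are the mean ± SD (n = 3). In the Acan panel the lines cross, with replicate 1 lower by 0.78 and replicate 2 higher by 1.06 on the ipsilateral side.

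Versican (Vcan), a large lectican with several splice forms, was read by probe sets that went in opposite directions. On its brightest probe set, 1427256_at, Vcan read 7.31, 7.42 and 7.80 contralaterally and 7.02, 7.41 and 7.51 ipsilaterally. It was lower in 3 of 3 replicates, but the sides overlapped and the difference was -0.20 (95% interval -0.62 to 0.23). On probe set 1421694_a_at Vcan read 5.45, 5.55 and 5.42 against 5.64, 5.86 and 5.61. There every ipsilateral value of Vcan lay above every contralateral one, and the difference was 0.23, with an exact permutation p of 0.1, the smallest that 3 against 3 arrays allow. The unadjusted limma p for that probe set of Vcan was 0.0626, or 0.0405 with the replicate number as a block, and its adjusted p was 1.00, beside an exact p of 0.1. Sides that separate upward were found for 2.82% of all probe sets. Which part of the Vcan transcript each probe set reads was not analysed here.

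Hapln1 had the same kind of split. Its other tested probe sets gave differences of 0.14 (1426294_at) and 0.20 (1421633_a_at), against -0.092 for the brightest. On 1421633_a_at the sides of Hapln1 did not overlap, with contralateral values of 5.22, 4.98 and 5.19 and ipsilateral values of 5.23, 5.53 and 5.22. The nearest values of the sides were both 5.22 at 2 decimals. Of 19 matrix genes with several tested probe sets, 11 had a single direction throughout (57.9%; 47.9% of all named genes with several).

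**Figure D3:**
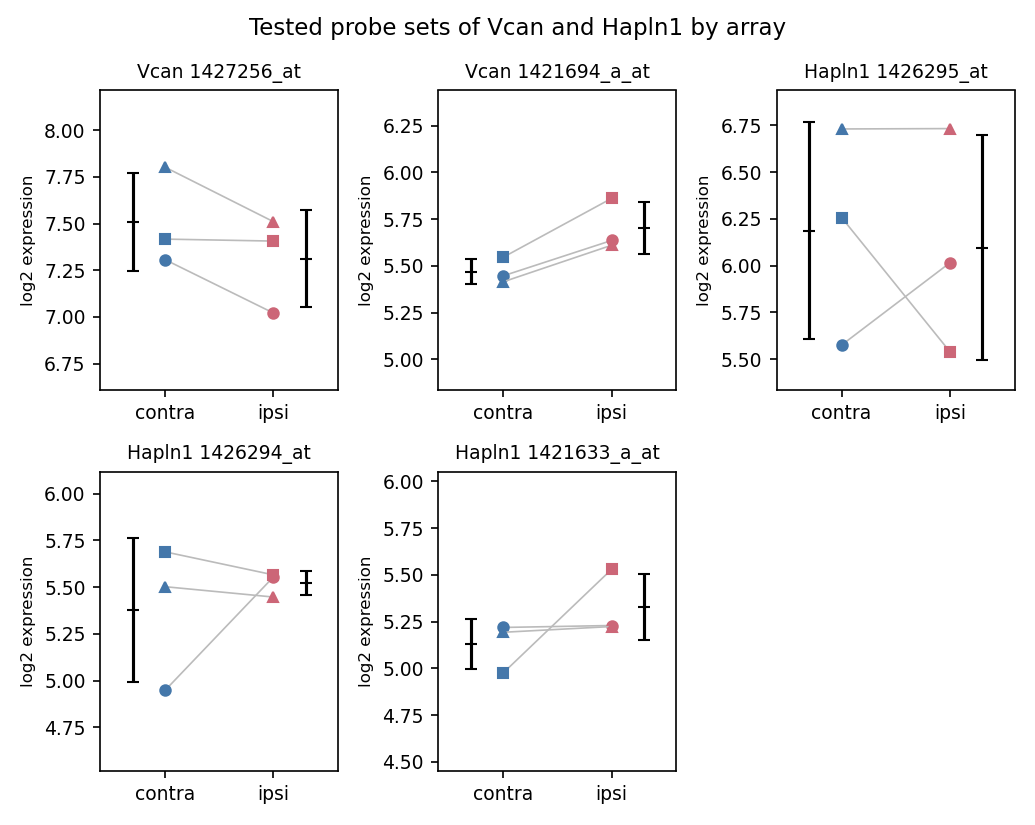
Log2 level on each array for the tested probe sets of Vcan and Hapln1; circles, squares and triangles are replicates 1, 2 and 3, grey lines join equal replicate numbers, and black bars are the mean ± SD (n = 3). The Vcan panels slope in opposite directions, -0.20 on 1427256_at and 0.23 on 1421694_a_at.

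Type IV collagen, the network-forming collagen of basement membranes, had 3 of 6 chains above the limit, and 3 of the 3 measured lower on the infused side without passing the test. Their median difference was -0.17. Col4a1, which pairs with Col4a2 in the most widespread network, read 8.58, 8.29 and 8.12 contralaterally and 7.93, 8.12 and 8.12 ipsilaterally. The sides of Col4a1 did not overlap, as for 3.44% of all probe sets in that direction, but contralateral array 3 and ipsilateral array 2 were equal at the 2 decimals given here. Within replicates the difference in Col4a1 was -0.65, -0.17 and -0.008, so most of it came from replicate 1. The mean difference was -0.27 (95% interval -0.60 to 0.05; exact permutation p = 0.1, the smallest possible), and on a dimmer probe set of Col4a1 it was -0.11 with overlapping sides.

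Col4a2 read 7.001, 7.04 and 6.76 contralaterally and 6.75, 6.74 and 6.80 ipsilaterally. Contralateral arrays 1 and 2 stood above the other 4, and the difference in Col4a2 was -0.17 (95% interval -0.42 to 0.08). Col4a5, a chain of another type IV network, read 6.13, 5.95 and 6.43 against 6.52, 5.53 and 6.15, a difference of -0.11 with overlapping sides. Col4a1 and Col4a2 lie head to head on chromosome 8 and start from a shared stretch: their promoter windows in RefSeq (GRCm38.p6), chr8:11312777-11313076 on the minus strand and chr8:11312555-11312854 on the plus strand, overlap by 78 bases.

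More vessel markers measured lower than higher, but none passed the adjusted test and their mean levels overlapped between the sides. Over all probe sets 48.2% were higher. Of 16 endothelial markers tested, 11 were lower and 5 higher (median -0.12), with mean levels of 6.59 to 6.63 contralaterally and 6.42 to 6.64 ipsilaterally. Of 10 mural cell markers tested, 8 were lower and 2 higher (median -0.11), with mean levels of 6.54 to 6.62 against 6.44 to 6.57. Sox17, an endothelial transcription factor, differed by -0.41 and Vtn, a mural cell glycoprotein, by -0.23, each with an exact permutation p of 0.1. The part of vessel content in the type IV collagen values was not tested.

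Laminins, the heterotrimers that cells grip through integrins and dystroglycan, had 6 of 10 chains above the limit, 3 higher and 3 lower. Lama2, an alpha chain of muscle and glial basement membranes, read 6.09, 5.42 and 5.66 contralaterally and 6.12, 5.83 and 6.12 ipsilaterally. It was higher in 3 of 3 replicates, but contralateral array 1 lay within the ipsilateral range, and the difference was 0.30 (95% interval -0.13 to 0.74; exact permutation p = 0.2). Lamc1, the gamma chain common to most laminins, read 6.74, 6.27 and 6.80 against 6.80, 6.99 and 6.56, a difference of 0.18. Lamb2 differed by 0.15 and was higher in 3 of 3 replicates, by 0.0058 in replicate 3. Lamb1 is described with Col8a1, since its values varied more between ipsilateral arrays than between sides.

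Nidogen 1 (Nid1), the linker between the laminin and collagen networks, read 6.75, 6.59 and 7.03 contralaterally and 6.81, 6.90 and 7.12 ipsilaterally. It was higher in 3 of 3 replicates by 0.15 on average, with overlapping sides. On a dimmer probe set of Nid1 the difference was -0.054, lower in 2 of 3 replicates, also with overlapping sides. Perlecan (Hspg2), the heparan sulphate proteoglycan of basement membranes, read 7.32, 7.02 and 6.58 against 6.88, 7.13 and 6.78, a difference of -0.045. A dimmer probe set of Hspg2 was lower in 3 of 3 replicates, with differences of -0.23, -0.27 and -0.23 and overlapping sides (exact permutation p = 0.2). Col18a1, the source of endostatin, differed by -0.043.

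**Figure D4:**
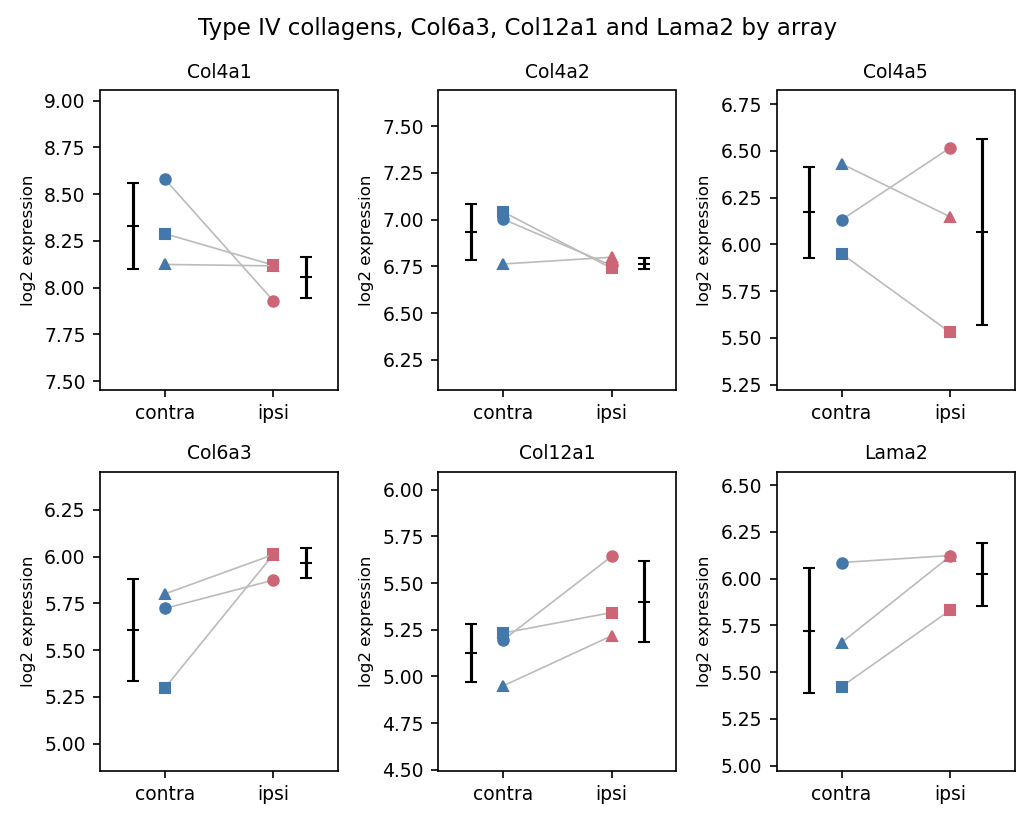
Log2 level on each array for the type IV collagens, Col6a3, Col12a1 and Lama2; circles, squares and triangles are replicates 1, 2 and 3, grey lines join equal replicate numbers, and black bars are the mean ± SD (n = 3). Col6a3 (5.30 to 5.80 against 5.87 to 6.01) and Col4a1 are the genes whose sides do not overlap.

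The fibrillar collagens, which form the banded fibres of connective tissue, had 8 of 9 genes above the limit, 3 higher and 5 lower, with a median difference of -0.027. Col1a2, a chain of type I collagen, read 8.89, 8.64 and 8.74 contralaterally and 8.74, 8.80 and 8.43 ipsilaterally, a difference of -0.10. Col3a1, the collagen of extensible tissue and vessel walls, read 6.34, 5.80 and 6.18 against 6.36, 6.23 and 6.13, a difference of 0.14. Neither gene separated the sides. Col1a1, the partner chain of Col1a2, was higher in 3 of 3 replicates, but by 0.07 on average, less than its standard error of 0.12. On a dimmer probe set of Col1a1 the difference was 0.27 (standard error 0.24). It was also higher in 3 of 3 replicates, with overlapping sides (exact permutation p = 0.4). Col11a2, a chain of minor fibrils, differed by -0.20, and Col5a2, which takes part in setting fibril diameter, by 0.15.

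The meningeal fibroblast markers, from the cells that make much of the fibrillar collagen around the brain, were lower for 14 of 16 tested and higher for 2, with a median of -0.10. Over all probe sets 48.2% were higher. In replicates 1 to 3 the median difference of these markers was -0.29, 0.12 and -0.069, and their mean levels overlapped between the sides. With their mean level as a covariate the difference in Col1a2 changed from -0.10 to 0.026, beside a standard error of 0.13 without it. The signs of Col6a2, Col18a1, Fn1 and Hspg2 also turned with this covariate. The part of meningeal content in any of these values was not tested.

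Among the other collagens, 12 of 19 were above the limit, 7 higher and 5 lower, with a median of 0.078. Col6a3, the large chain of the beaded type VI microfibrils, read 5.72, 5.30 and 5.80 contralaterally and 5.87, 6.01 and 6.01 ipsilaterally. All 3 ipsilateral values of Col6a3 were above all 3 contralateral ones, with contralateral array 2 standing lowest. The difference was 0.36 on the log2 scale (95% interval 0.01 to 0.71), a fold of 1.28, with an exact permutation p of 0.1, the smallest possible. The limma p for Col6a3 was 0.0464 unadjusted and 1.00 adjusted. Leaving out single arrays or replicate pairs gave unadjusted p-values for Col6a3 from 0.0267 to 0.217, at or above 0.05 in 8 of 9 fits, and the replicate block gave 0.0558.

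Col6a2, another chain of the same microfibrils, did not follow Col6a3. It read 6.80, 6.26 and 6.06 contralaterally and 5.72, 6.77 and 5.9995 ipsilaterally, a difference of -0.21 with widely overlapping sides. On a dimmer tested probe set of Col6a2 the difference was 0.012, also with overlapping sides. Col12a1, a collagen that sits on fibril surfaces, read 5.20, 5.23 and 4.95 against 5.64, 5.34 and 5.22. It was higher in 3 of 3 replicates by 0.27 on average, with an exact permutation p of 0.2 and an unadjusted limma p of 0.0956. With the replicate number as a block Col12a1 was the only member under an unadjusted 0.05, at 0.0455. That is 2.22% of members, where 1.75% of all probe sets were higher, 1.97% lower and 3.72% either. Col16a1, a fibril-associated collagen, differed by 0.10.

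The interstitial glycoproteins and small proteoglycans had 6 of 7 genes above the limit, 3 higher and 3 lower. Sparcl1, a matrix glycoprotein secreted by astrocytes, read 14.40, 14.34 and 14.39 contralaterally and 14.35, 14.45 and 14.62 ipsilaterally, a difference of 0.10 (95% interval -0.15 to 0.34). Sparc, its collagen-binding relative, differed by 0.06. Both stood within a narrow range on every array, 13.13 to 13.43 for Sparc. Fibronectin (Fn1), an adhesive glycoprotein of vessels and meninges, read 8.92, 8.53 and 8.87 against 8.70, 8.75 and 8.76, a difference of -0.037. Decorin (Dcn), a small leucine-rich proteoglycan of meningeal fibroblasts, differed by 0.053, and biglycan (Bgn), its relative, by -0.022. Lumican (Lum) read 4.55, 4.32 and 4.42 contralaterally and 4.05, 3.44 and 4.86 ipsilaterally, so it crossed the limit of 4 on 1 array.

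Col8a1, Col9a3 and Lamb1 stood apart in another way and were singled out after their values were seen. Col8a1 encodes a network-forming collagen made by endothelial and other cells, Col9a3 a chain of the fibril-associated type IX collagen, and Lamb1 a beta chain of many laminins. Their largest differences lay between ipsilateral arrays. The promoter windows of Col8a1 and Lamb1 from RefSeq (GRCm38.p6), printed because these genes shared an array pattern, are chr16:57754738-57754987 on the minus strand and chr12:31265043-31265145 on the plus strand, with motif matches in capitals.
Col8a1: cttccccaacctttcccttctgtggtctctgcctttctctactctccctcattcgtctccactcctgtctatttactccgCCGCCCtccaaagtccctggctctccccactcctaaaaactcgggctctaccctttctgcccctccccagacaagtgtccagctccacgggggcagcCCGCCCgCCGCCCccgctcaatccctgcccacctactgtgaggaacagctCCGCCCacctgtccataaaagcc
Lamb1: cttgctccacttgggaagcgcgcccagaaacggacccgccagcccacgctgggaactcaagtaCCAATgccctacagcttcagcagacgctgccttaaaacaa
The Col8a1 window held 4 matches to GGGCGG (the GC box) on either strand, a motif found in 32.7% of all windows of that length. The Lamb1 window held 1 match to CCAAT, found in 13.9% of windows of its length, and overlaps the annotated gene Gm32899. Neither window held TATAAA or TAATCC, the core bound by OTX2, searched on both strands and found in 12.4% and 6.25% of windows of the Col8a1 length and in 5.38% and 2.74% of those of the Lamb1 length. The Lamb1 stretch is the first 103 bases of a window of 300, cut where the annotated gene begins. Shares at its length were counted over the first 103 bases of every window, wherever the gene begins. They therefore need not cover the same distance from a gene start. A match is a run of letters and not a measured binding site.

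Col8a1 read 6.23, 5.66 and 5.66 on contralateral arrays 1 to 3, and 6.98, 4.10 and 5.03 on ipsilateral arrays 1 to 3. Col9a3 read 7.45, 7.16 and 7.06 against 8.28, 6.08 and 6.60. Lamb1 read 7.74, 7.54 and 7.26 against 8.36, 6.76 and 7.06. On the brightest probe set of each of these genes ipsilateral array 1 was the highest of the 6. Ipsilateral arrays 2 and 3 were the lowest there, so the ipsilateral values enclosed the contralateral ones. Dimmer tested probe sets of Lamb1 kept ipsilateral array 1 highest but not the rest. On 1424113_at ipsilateral array 2 (6.18) lay above contralateral array 3 (6.16). On 1451241_at contralateral array 2 was the lowest, at 4.18, and the side difference was 0.12. The dimmer tested probe set of Col9a3 kept the pattern.

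Ipsilateral array 1 exceeded the mean of ipsilateral arrays 2 and 3 by 2.41 for Col8a1, 1.94 for Col9a3 and 1.45 for Lamb1. The other 42 matrix genes ranged from -1.28 (Col19a1) to 0.68 (Col4a5) on that measure. A gap of 1 or more in that direction was seen for 3 of 45 matrix genes (6.67%) and for 0.693% of all probe sets. Those 3 genes were singled out for this pattern, so that share describes the choice and is no test. A gap of that size in the opposite direction was seen for 1 of 45 genes (2.22%) and for 0.0915% of all probe sets. The mean of the 11 choroid plexus markers had a gap of 3.85 between the same arrays. The part of choroid plexus tissue in the values of these 3 genes was not tested.

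The side-to-side differences of these genes were -0.48 for Col8a1 (95% interval -2.06 to 1.11), -0.24 for Col9a3 and -0.12 for Lamb1. Each depended on single arrays. Without ipsilateral array 1 the Col8a1 difference was -1.28, and without ipsilateral array 2 it was 0.16. Fitted beside the mean choroid plexus level, the differences were 0.32 for Col8a1, 0.39 for Col9a3 and 0.36 for Lamb1, the reverse of the unadjusted direction. These genes were singled out for an array pattern that the choroid plexus markers share. A shift with that covariate therefore follows from the choice and tests no cause. An ipsilateral range of 1 or more, which Acan, Col6a2, Col19a1, Hapln1 and Lum also had, was seen for 8 of 45 genes (17.8%; 3.71% of all probe sets).

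**Figure D5:**
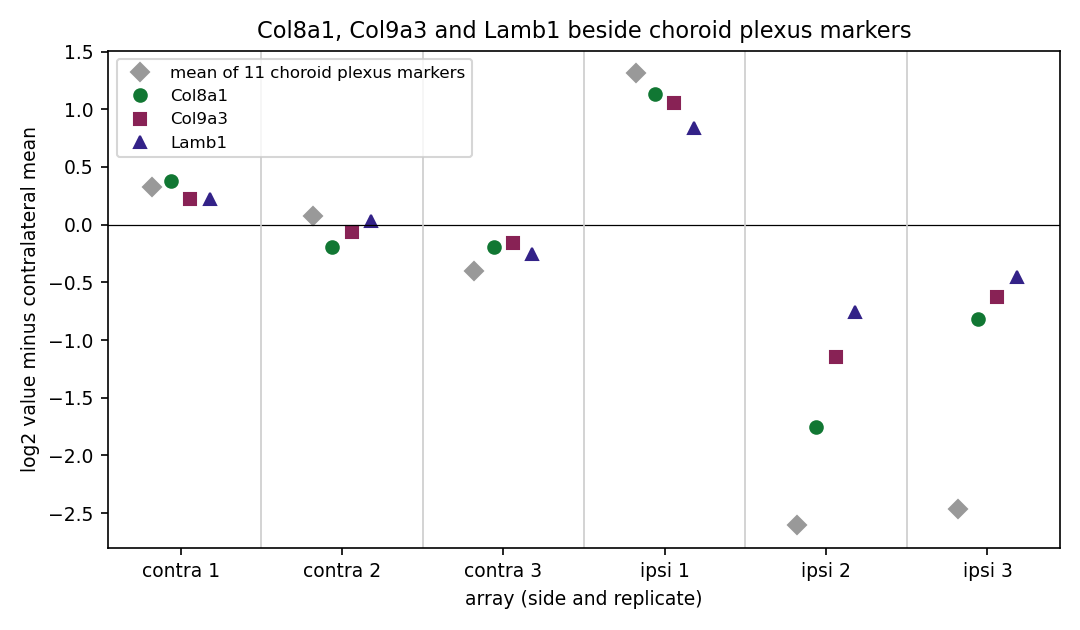
Log2 value of Col8a1, Col9a3, Lamb1 and the mean of 11 choroid plexus markers on each array, minus the mean of the 3 contralateral arrays. All 4 are highest on ipsilateral array 1 and lowest on ipsilateral arrays 2 and 3, where the markers had mean levels of 4.91 and 5.05.

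The genes that build, hold and cut the matrix gave no adjusted call either, with every adjusted p in limma at 1.00. Of the enzymes that fold, crosslink and trim collagen, 18 of 28 were tested, 10 higher and 8 lower. None of them had an unadjusted limma p under 0.05, a level that 2.38% of all probe sets reached in either direction. Loxl1, which crosslinks elastin and collagen, read 4.72, 4.57 and 4.71 contralaterally and 4.66, 4.09 and 4.05 ipsilaterally, a difference of -0.40 with overlapping sides (exact permutation p = 0.2). P4ha2, a prolyl hydroxylase subunit, differed by -0.17. Of the matrix receptors, 16 of 25 were tested, 10 higher and 6 lower, with 0 under 0.05 (2.38% of all probe sets). Ddr2, a collagen-binding receptor kinase, was higher in 3 of 3 replicates by 0.26 on average, and Sdc1, a cell surface heparan sulphate proteoglycan, by 0.22.

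Of the ADAMTS proteases that cut lecticans, 3 of 7 were tested, 1 higher and 2 lower. Adamts1 alone had an unadjusted limma p under 0.05, which 1.22% of all probe sets reached in the lower direction. Adamts1, which cleaves aggrecan and versican, read 6.26, 6.45 and 5.97 contralaterally and 6.07, 5.66 and 5.63 ipsilaterally. It was lower in 3 of 3 replicates by 0.44 on average, with 1 ipsilateral value inside the contralateral range, an unadjusted limma p of 0.0374, an adjusted p of 1.00 and an exact permutation p of 0.2. Adamts5 differed by -0.15 and Adamts4 by 0.11. Enzymes that make hyaluronan and chondroitin sulphate had 13 of 24 tested, 6 higher and 7 lower, with 0 under 0.05 (2.38% of all probe sets). Chst11, a chondroitin sulphotransferase, differed by -0.39, and contralateral array 2 accounted for most of it, at 5.19 against 4.23 to 4.41 elsewhere. Chst15, another such enzyme, differed by -0.15.

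Of the other brain proteoglycans, 16 of 18 were tested, 9 higher and 7 lower. Smoc2 alone among them had an unadjusted limma p under 0.05, which 1.22% of all probe sets reached in the lower direction. Sides that separate downward were found for 3.44% of all probe sets. Smoc2, a secreted calcium-binding matrix protein, read 4.60, 4.35 and 4.58 contralaterally and 4.14, 4.30 and 4.22 ipsilaterally. The sides of Smoc2 did not overlap, and the difference was -0.28, with an unadjusted limma p of 0.0329, an adjusted p of 1.00 and an exact permutation p of 0.1. Gpc1, a glypican, differed by 0.27, most of it from replicate 2, at 0.72.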

How the data were processed

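Total RNA from 6 pools of mouse cochlear nucleus was hybridised to Affymetrix arrays. The deposited values are log2 expression made by the authors with GCRMA, per the submitters' processing notes. In its usual form GCRMA corrects background by probe sequence, quantile normalizes and summarises probe sets. No source used here gives its version or settings. GCRMA shrinks dim probe sets towards a floor, so differences of dim genes can be understated. The log2 scale was read from the range of the values.

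Symbols came from the platform annotation: 20393 probe sets had 1 symbol, 691 several and 1606 none. Of 22690 probe sets, 64 controls and 7328 with a mean at or below 4 were left out. The remaining 15298 were tested with limma 3.58.1 in R 4.3.3 (lmFit, eBayes, 3 against 3 arrays, no block), with Benjamini-Hochberg adjustment over all of them at 0.05. For single genes a two-sided exact permutation test over the 6 arrays was added after the data were seen; its smallest p is 0.1. Intervals are 95%. Precision is limited by the number of arrays. The fit was tested on simulated data.

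Members and lists were chosen with earlier results of these data known. The text names all tested perineuronal net genes. From the other matrix groups it names the 3 brightest genes and the 2 of smallest p, and from the related lists the 2 of smallest p. Other genes it names were added after their values were seen.

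The design implies that both sides came from the same mice. The labels do not state that equal replicate numbers are the same pool, and the differences within replicates and the block rest on that reading. Deviations from the side mean correlated over probe sets by 0.09, 0.04 and 0.57 for same-numbered arrays 1 to 3. Other pairs gave -0.37 to 0.30, so only replicate 3 lay above all of them. RefSeq promoter windows were matched by symbol for 34 of the 45 genes. Alternatives covered the filter, normalization, variance model, weights, block, probe set choice, marker covariates and arrays left out.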

Additional observations from a re-analysis of the deposited data

How the results depend on the processing

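No matrix gene had an adjusted p under 0.05 in limma under any of 21 alternatives. Among the 32 matrix genes followed one by one, the smallest adjusted p in limma was 0.754. Over all probe sets, leaving out arrays gave 0 to 5 adjusted calls. With the replicate number as a block (pairing), 267 probe sets were higher and 302 lower at an unadjusted p under 0.05, against 177 and 187; the adjusted count stayed at 0, so the block changed no adjusted call. At an unadjusted 0.05 it moved Col6a3 above and Col12a1 below. Elsewhere the count higher was 111 without _s_at, _x_at and _a_at probe sets, 354 with the meningeal covariate and 287 without ipsilateral arrays 2 and 3 together (chosen after seeing the data). The count lower was 111 above a mean of 6, 594 with the meningeal covariate and 284 without those arrays. Leaving out arrays gave 132 to 276 higher and 156 to 301 lower. The count of matrix genes higher, 1, was 0 above a mean of 6, with trended and robust variance and with array weights, 3 with the choroid plexus covariate and 4 without ipsilateral arrays 2 and 3. Leaving out arrays gave 0 to 2. The count lower, 0, was 1 with the meningeal covariate and 0 to 4 with arrays left out. Causes were not tested.

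Median differences, without ipsilateral arrays 2 and 3, were 0.25 for laminins, -0.053 for interstitial genes and -0.20 for net genes. For other collagens the median was -0.019 without a filter, -0.019 without _s_at, _x_at and _a_at probe sets and -0.21 above a mean of 6. With arrays left out the medians ran from -0.045 to 0.087 for all matrix genes, -0.049 to 0.056 for interstitial genes, -0.096 to 0.15 for nidogens, perlecan and Col18a1, -0.017 to 0.18 for other collagens, -0.20 to 0.16 for net genes, -0.088 to 0.098 for fibrillar collagens, -0.025 to 0.15 for laminins and -0.27 to -0.11 for type IV collagens.

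Of 32 matrix genes followed, 9 kept their sign under every alternative that tested them: Bcan, Col4a1, Col4a2, Col6a3, Col11a2, Col12a1, Lama2, Lamb2 and Nid1. Col6a3, Col11a2 and Lama2 were tested in 20 of the 21 alternatives and Col12a1 in 19. Read alone, the dimmer tested probe set of Nid1 had the other sign (-0.054). Signs turned with the choroid plexus covariate for Acan (-0.13), Col1a1 (-0.0061), Col4a5 (0.097), Col8a1 (0.32), Col9a3 (0.39), Lamb1 (0.36), Ncan (-0.053) and Sparc (-0.019). They turned without ipsilateral arrays 2 and 3 for Acan (-0.43), Col1a1 (-0.073), Col4a5 (0.34), Col8a1 (1.13), Col9a3 (1.05), Lamb1 (0.84), Ncan (-0.20), Sparc (-0.09) and Sparcl1 (-0.028). They turned with the meningeal covariate for Col1a2 (0.026), Col6a2 (0.11), Col18a1 (0.033), Fn1 (0.022) and Hspg2 (0.16). The mean of a gene's probe sets turned Hapln1 (0.083) and Vcan (0.019), and leaving out _s_at, _x_at and _a_at probe sets turned Col18a1 (0.041).

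With arrays left out, differences crossed 0 for Acan (-0.31 to 0.61), Col16a1 (-0.0087 to 0.17), Col18a1 (-0.096 to 0.029), Col1a1 (-0.010 to 0.14), Col1a2 (-0.23 to 0.016), Col3a1 (-0.019 to 0.25), Col4a5 (-0.35 to 0.16), Col5a2 (-0.012 to 0.28), Col6a2 (-0.57 to 0.23), Col8a1 (-1.28 to 0.16), Col9a3 (-0.89 to 0.21), Fn1 (-0.16 to 0.057), Hapln1 (-0.41 to 0.22), Hapln2 (-0.20 to 0.055), Hspg2 (-0.24 to 0.15), Lamb1 (-0.61 to 0.21), Lamc1 (-0.090 to 0.39), Lum (-0.69 to 0.024), Ncan (-0.20 to 0.28), Sparc (-0.013 to 0.14) and Tnc (-0.086 to 0.048).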
